A study of Mus musculus with 6 samples.

Results

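The cytosolic RNA and DNA sensing genes were described in Lewis lung carcinoma cells sorted from mouse tumours. The genes were chosen by symbol, and all 10 were found among the 18182 genes of the deposited tables: Ddx58, Ifih1, Dhx58, Mavs, Mb21d1, Tmem173, Tbk1, Eif2ak2, Adar and Trex1. All 10 also passed the filter on low counts, which left 13353 genes for testing. Lewis lung carcinoma (LLC) is a mouse lung cancer line that grows in C57BL/6 mice, and the cells used here carried red fluorescent protein (LLC-RFP). In LLC alone, wild type C57BL/6 mice received LLC-RFP under the skin without other cells. In LLC with BMSCs, mice of the same strain and genotype received LLC-RFP together with bone marrow-derived mesenchymal stem cells (BMSCs). Cells positive for red fluorescence were sorted from the primary tumours of both groups, so the label marks the injected carcinoma line, and host cells or BMSCs remain in a library as far as the sort let them through. Each group had 3 libraries of RNA sequencing, with totals of 33476347 to 46189113 estimated counts. No source used here says whether the libraries of a group came from separate mice, so p values measure the spread between these libraries. The comparison asks what the carcinoma cells express when BMSCs share their tumour.

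These genes form the machinery by which a cell detects nucleic acid in its cytosol. RIG-I (Ddx58) and MDA5 (Ifih1) bind double-stranded RNA and signal through MAVS on mitochondria. Cyclic GMP-AMP synthase (cGAS, the product of Mb21d1) binds DNA and makes a second messenger for STING (the product of Tmem173). Both routes use the kinase TBK1, which phosphorylates the transcription factor IRF3 and so switches on type I interferon genes. Interferon in turn raises the transcription of several of the sensors, through promoter elements called interferon-stimulated response elements. PKR (Eif2ak2), ADAR1 (Adar) and TREX1 (Trex1) act beside these routes: PKR stops translation when it binds double-stranded RNA, ADAR1 edits such RNA and TREX1 degrades cytosolic DNA.

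The core of the interferon-stimulated response element, spelled GAAA, any pair of bases and GAAA again, was searched on both strands in RefSeq promoter windows of GRCm38.p6, from 250 bases before to 50 bases after a gene's start. Of the 10 genes, 8 had a window, and the core was present in 3 of them, Ifih1, Ddx58 and Eif2ak2. These 8 genes had 11 windows. The core was present in 3.44% of all 32851 windows and, counted by gene, in 3.99% of the 27025 genes with a window. The stretches that hold it are shown because these 3 genes were among the 5 with the larger increases below. Each stretch has 30 bases, is written on the strand of its gene, overlaps the annotated exon at the start of the transcript upstream of the coding sequence, and has the core in capitals. In Ddx58 the core runs against the gene.
Ifih1, chr2:62646206-62646235, minus strand: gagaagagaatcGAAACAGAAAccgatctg
Ddx58, chr4:40239804-40239833, minus strand: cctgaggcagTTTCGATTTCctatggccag
Eif2ak2, chr17:78882535-78882564, minus strand: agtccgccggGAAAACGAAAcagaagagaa

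Counted from the RefSeq start, the core began 33 bases downstream in Ifih1, 3 bases downstream in Ddx58 and 19 bases downstream in Eif2ak2. The windows of Mavs, Mb21d1, Trex1, Tbk1 and Adar held no match, which says only that these letters are not in these windows. The gamma-activated site, spelled TTCNNNGAA, was found in the window at the start of the long Adar transcripts and in that of Eif2ak2. It was present in 8.30% of all windows and in 9.55% of the genes with a window. The matches do not overlap each other. They are matches of letters, and binding was not measured.

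In LLC with BMSCs the gene totals of the RIG-I-like receptors, PKR and TREX1 rose. Those of MAVS, cGAS, STING, TBK1 and ADAR1 differed by 1.30-fold or less. Single transcripts, such as some of Adar and Tmem173, differed by more, as given below. By edgeR's quasi-likelihood test with Benjamini-Hochberg adjustment over all tested genes, 8 of the 10 were higher and 1 was lower at an adjusted p under 0.05. Over all tested genes the same test called 31.5% higher and 31.3% lower, 62.9% in either direction. A rise of 1 or more on the log2 scale was seen for 5 of them, Ddx58, Ifih1, Dhx58, Eif2ak2 and Trex1, against 8.65% of all tested genes, and 7.17% of all tested genes fell that far. The median log2 fold change of the 10 genes was 1.04, beside 0.01 over all tested genes. In FPKM (fragments relative to the transcript's length and the library's total) the ranges of the groups did not overlap for 8 genes that were higher and for 1 that was lower, where 37% of all tested genes were higher and 33.7% lower in this way, 70.6% together. With 3 libraries against 3, an exact permutation test has no two-sided p below 0.1, so each such gene had a p of 0.1 on FPKM.

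**Figure D1:**
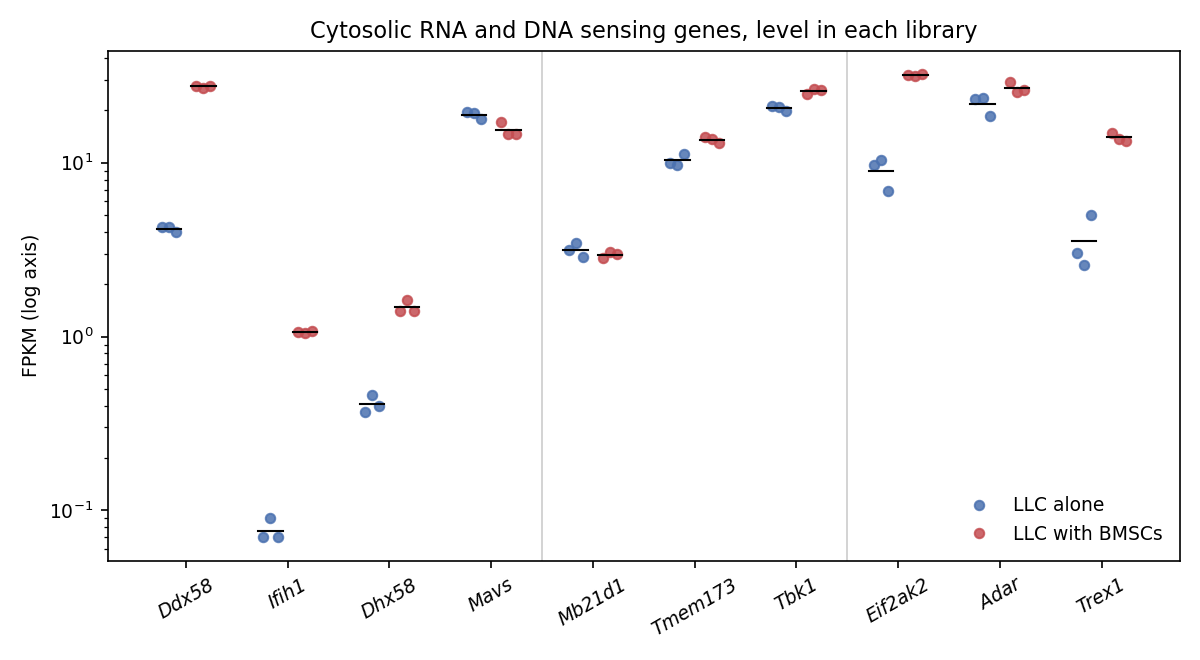
Level of each sensing gene in each library, in FPKM on a log axis, with LLC alone in blue, LLC with BMSCs in red and a black line at each group's mean. The groups stand far apart for Ddx58, Ifih1, Dhx58, Eif2ak2 and Trex1, lie close together for Mavs, Tmem173, Tbk1 and Adar, and overlap for Mb21d1.

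Ddx58 encodes RIG-I, the sensor of short double-stranded RNA with a triphosphate end. In the GENCODE annotation of GRCm38 it lies at chr4:40203773-40239828 on the minus strand. Its FPKM was 4.25, 4.26 and 4.0 in the libraries of LLC alone and 27.75, 27.02 and 27.58 in those of LLC with BMSCs. The libraries within each group lay close together and the groups were far apart. By edgeR's quasi-likelihood test its level rose 6.5-fold, a log2 fold change of 2.70 (SE 0.059, adjusted p 1.02e-07, n = 3 per group).

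Ifih1 encodes MDA5, the sensor of long double-stranded RNA, and lies at chr2:62595798-62646255 on the minus strand. Its FPKM was 0.07, 0.09 and 0.07 in LLC alone and 1.06, 1.05 and 1.08 in LLC with BMSCs. These levels rest on 16 estimated counts in each library of LLC alone and on 258, 252 and 259 in LLC with BMSCs. Ifih1 was therefore the lowest of the 10 genes in both groups, and had the largest fold change among them. The edgeR log2 fold change was 3.89 (SE 0.14, adjusted p 7.32e-07), or 14.8-fold with a 95% interval of 11.8 to 18.7. With limma on log2(FPKM + 1), which understates the change of low genes, the log2 fold change was 0.94.

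Dhx58 encodes LGP2, the third RIG-I-like receptor, which binds RNA but lacks the signalling domain of the other members. It lies at chr11:100694884-100704271 on the minus strand. Its FPKM was 0.37, 0.46 and 0.40 in LLC alone and 1.41, 1.62 and 1.40 in LLC with BMSCs, without overlap. By edgeR this was a log2 fold change of 1.84 (SE 0.14, adjusted p 2.25e-05), and by limma on log2(FPKM + 1) one of 0.81.

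Taken per length, the RIG-I-like receptors were mostly Ddx58. The summed FPKM of the 3 receptors was 4.69, 4.81 and 4.47 in LLC alone and 30.22, 29.69 and 30.06 in LLC with BMSCs. Ddx58 held 88.6% to 90.6% of that sum in LLC alone and 91.0% to 91.8% in LLC with BMSCs. The share of Ifih1 was 1.49% to 1.87% and then 3.51% to 3.59%, and the share of Dhx58 was 7.89% to 9.56% and then 4.66% to 5.46%. The ranges of the groups did not overlap for any of the 3 shares (exact permutation p 0.1, two-sided, the smallest possible). All 3 receptor genes rose, and their order of level, Ddx58 above Dhx58 above Ifih1, was the same in both groups.

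Mavs encodes the adaptor on which RIG-I and MDA5 converge, and lies at chr2:131234063-131248025 on the plus strand. Its FPKM was 19.57, 19.22 and 17.91 in LLC alone and 17.23, 14.67 and 14.62 in LLC with BMSCs. Every library of LLC with BMSCs was below every library of LLC alone, with replicate 1 of LLC with BMSCs close to replicate 3 of LLC alone. The edgeR log2 fold change was -0.31 (SE 0.084, adjusted p 0.0124), the only fall among the 10 genes that passed the threshold. That call was lost without LLC with BMSCs replicate 2 (log2 fold change -0.27, adjusted p 0.0539) or replicate 3 (-0.27, adjusted p 0.0548), within a range of adjusted p from 0.00286 to 0.122 over all alternatives. The ratio of Ddx58 to Mavs FPKM was 0.22 in each library of LLC alone and 1.61, 1.84 and 1.89 in LLC with BMSCs. Ddx58 was thus below Mavs in every library of LLC alone and above it in every library of LLC with BMSCs. Ifih1 and Dhx58 stayed below Mavs in both groups, at no more than 1.08 and 1.62 FPKM in LLC with BMSCs.

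Mb21d1 encodes cGAS and lies at chr9:78430526-78443237 on the minus strand. Its FPKM was 3.14, 3.45 and 2.87 in LLC alone and 2.83, 3.07 and 2.99 in LLC with BMSCs, and the ranges overlapped. It was the one gene of the 10 that the test did not call, with a log2 fold change of -0.11 (SE 0.085, edgeR adjusted p 0.295). The 95% interval of its fold ran from 0.808 to 1.06, so a rise like that of the RNA sensors lies outside the interval. Once a trend over transcript length was removed it was called lower, with a log2 fold change of -0.20 and an adjusted p of 0.0283, in a range of 0.0283 to 0.680 over all alternatives.

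Tmem173 encodes STING, the receptor on the endoplasmic reticulum for the messenger that cGAS makes. Its FPKM was 9.90, 9.75 and 11.24 in LLC alone and 13.99, 13.60 and 12.91 in LLC with BMSCs. Every library of LLC with BMSCs was above every library of LLC alone, by a small margin. In the edgeR fit this was a log2 fold change of 0.38 (SE 0.075, adjusted p 0.00309), a 1.30-fold rise. Relative to Mb21d1, the FPKM of Tmem173 was 2.83 to 3.92 times as high in LLC alone and 4.32 to 4.94 times as high in LLC with BMSCs.

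Tbk1 encodes the kinase downstream of both MAVS and STING, and lies at chr10:121546455-121586787 on the minus strand. Its FPKM was 21.21, 20.99 and 19.77 in LLC alone and 24.95, 26.47 and 26.19 in LLC with BMSCs. The groups did not overlap, and the edgeR log2 fold change was 0.30 (SE 0.058, adjusted p 0.00242). Its close relative Ikbke, which encodes the inducible kinase IKK-epsilon, rose far more, from 1.13 to 1.32 FPKM to between 9.44 and 10.20 FPKM (log2 fold change 3.00, SE 0.084, adjusted p 2.46e-07). The FPKM of Tbk1 was 15.0 to 18.6 times that of Ikbke in LLC alone and 2.45 to 2.77 times in LLC with BMSCs. Tbk1 remained the more abundant transcript of the pair in all 6 libraries.

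Eif2ak2 encodes PKR, a kinase that double-stranded RNA activates and that phosphorylates the translation factor eIF2 alpha. It lies at chr17:78852564-78882573 on the minus strand. Its FPKM was 9.75, 10.36 and 6.84 in LLC alone and 32.04, 31.67 and 32.40 in LLC with BMSCs. The third library of LLC alone was the lowest, and the libraries of LLC with BMSCs lay close together. The edgeR log2 fold change was 1.70 (SE 0.093, adjusted p 4.80e-06), and 1.43 with the trend over transcript length removed. With this rise Eif2ak2 moved from the fifth highest FPKM of the 10 genes to the highest.

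Of the 4 kinases that phosphorylate eIF2 alpha, Eif2ak2 encodes the one that senses double-stranded RNA. The heme-regulated kinase Eif2ak1 had 23.81 to 24.60 FPKM in LLC alone and 26.14 to 27.95 in LLC with BMSCs, and was not called (log2 fold change 0.13, SE 0.057, adjusted p 0.0703). Eif2ak3, the PERK kinase of the endoplasmic reticulum, rose with a log2 fold change of 0.44 (SE 0.084, adjusted p 0.00257). Eif2ak4, the GCN2 kinase that responds to amino acid shortage, rose with a log2 fold change of 0.64 (SE 0.10, adjusted p 0.00109). Eif2ak2 held 20.3%, 21.1% and 16.3% of the summed FPKM of the 4 kinases in LLC alone and 40.6%, 41.1% and 41.5% in LLC with BMSCs (exact permutation p 0.1). Eif2ak1 led in every library of LLC alone with 49.4% to 56.7% of the sum, and Eif2ak2 led in every library of LLC with BMSCs.

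Trex1 encodes the exonuclease that removes DNA from the cytosol, and lies at chr9:109057933-109059734 on the minus strand. Its FPKM was 3.04, 2.57 and 5.01 in LLC alone and 14.84, 13.72 and 13.33 in LLC with BMSCs. The third library of LLC alone was the highest of its group and still far below the other group. By edgeR the log2 fold change was 1.93 (SE 0.22, adjusted p 1.75e-04), the largest standard error among the 10 genes. Trex1 shares exon bases with Atrip on the same strand, and its estimated counts were not whole in any of the 6 libraries, so reads may have been divided between the genes. Atrip had 8.78 to 9.31 FPKM in LLC alone and 9.68 to 10.62 FPKM in LLC with BMSCs. The summed FPKM of Trex1 and Atrip was 11.82, 11.88 and 14.02 in LLC alone and 24.52, 24.34 and 23.40 in LLC with BMSCs, so the sum also rose without overlap of the groups.

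Both Trex1 transcripts in the files have the same coding sequence of 314 residues and differ in where they start. NM_001012236 starts at position 109059251 and NM_011637 upstream of it, at 109059734. NM_001012236 had 0.00, 0.87 and 1.26 FPKM in LLC alone and 14.61, 12.83 and 12.17 FPKM in LLC with BMSCs. It made up 0.00%, 34.0% and 25.1% of the FPKM of the gene in LLC alone and 98.5%, 93.5% and 91.3% in LLC with BMSCs (exact permutation p 0.1, n = 3 per group). NM_011637 moved the other way, with 3.04, 1.69 and 3.76 FPKM against 0.23, 0.89 and 1.16 FPKM. The increase of Trex1 was thus assigned to the transcript with the downstream start, on 0.00 to 57.4 estimated counts in LLC alone and 526 to 644 in LLC with BMSCs. The transcripts are 1060 and 1074 bases long and share their coding sequence. Their shares are estimates of the authors' pipeline, on few counts in LLC alone, and the start in use was not tested.

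Adar encodes ADAR1, which converts adenosine to inosine in double-stranded RNA, and lies at chr3:89715022-89753446 on the plus strand. As a gene it changed little, with 23.27, 23.41 and 18.57 FPKM in LLC alone and 29.06, 25.53 and 26.25 FPKM in LLC with BMSCs. The groups did not overlap, and the third library of LLC alone was the lowest. The edgeR log2 fold change was 0.33 (SE 0.10, adjusted p 0.0235). It fell to 0.11 (adjusted p 0.0489) with the length trend removed. The call was lost without LLC with BMSCs replicate 1 (log2 fold change 0.27, adjusted p 0.0850) or replicate 3 (0.35, adjusted p 0.0530), and the adjusted p ranged from 0.00602 to 0.0850 over all alternatives.

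The transcripts of Adar moved in opposite directions. ADAR1 is made as a long form, p150, known to come from an interferon-inducible promoter and to reach the cytoplasm, and as a short form, p110, that is mostly nuclear. NM_001146296 and NM_019655 share a start at position 89730748 and encode 1178 and 1152 residues. NM_001038587 starts upstream, at 89715022, has its first coding base downstream of theirs and encodes 930 residues. The transcripts with the long coding sequence summed to 4.67, 3.13 and 6.05 FPKM in LLC alone and to 15.94, 12.31 and 13.66 FPKM in LLC with BMSCs, a mean 3.03 times as high. NM_001038587 had 14.35, 14.64 and 11.87 FPKM in LLC alone and 8.45, 8.75 and 7.73 FPKM in LLC with BMSCs, a mean 0.610 times as high.

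The share of Adar FPKM on the long coding sequence was 22.0% ± 9.75 (SD, n = 3) in LLC alone and 51.7% ± 3.33 in LLC with BMSCs, a difference of 29.7 percentage points (exact permutation p 0.1, the smallest possible). The share on NM_001038587 was 62.7% ± 1.14 and then 30.9% ± 2.90. NM_001146296 by itself was listed at 0 in all libraries of LLC alone and had 5.83, 4.66 and 4.23 FPKM in LLC with BMSCs, but it has the start of NM_019655 and reads can be divided between them. The remaining FPKM lay on BGI_novel_T005337 and BGI_novel_T005338, whose structure is not given in the sources used here. Counting in estimated counts instead of FPKM left the difference of the long share at 27.5 percentage points. Short reads are assigned to transcripts by estimation, so these shares are the estimates of the authors' pipeline.

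**Figure D2:**
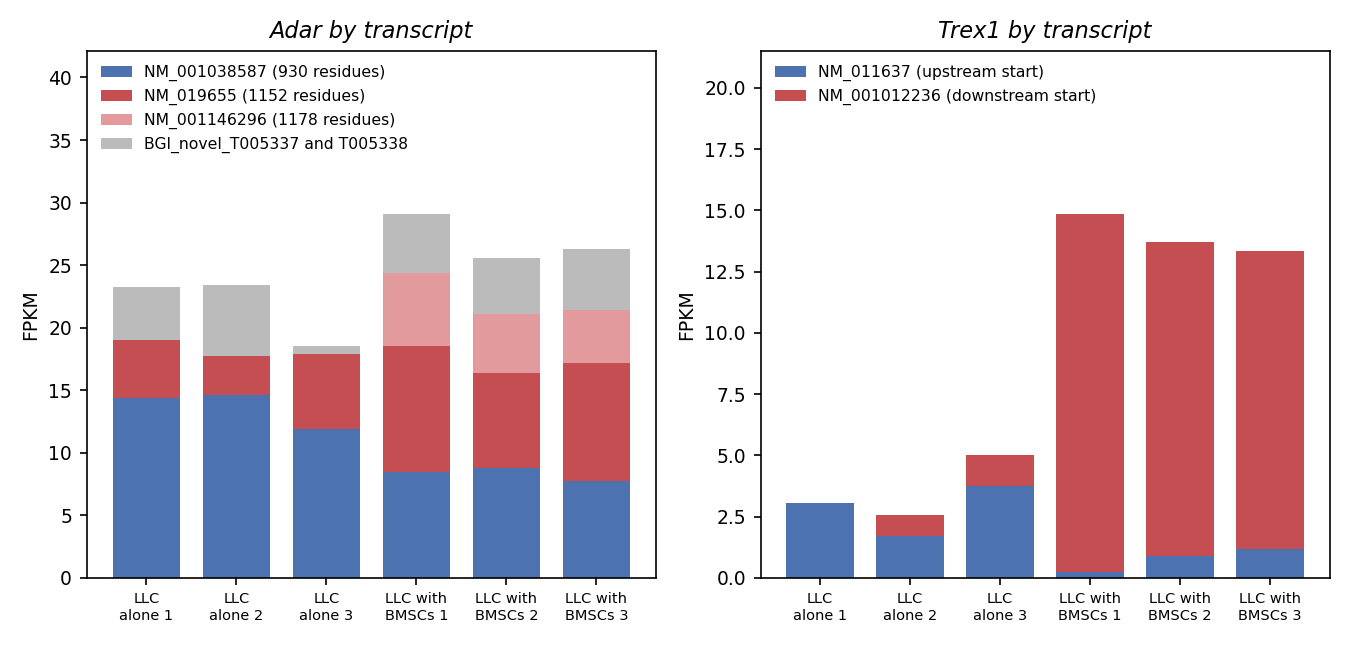
FPKM of the transcripts of Adar and of Trex1 in each library, stacked so that the height of a bar is the FPKM of the gene. In LLC with BMSCs the transcripts of Adar that encode 1152 or 1178 residues take 48.2% to 54.9% of the bar, and the downstream-start transcript of Trex1 takes 91.3% to 98.5%.

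Among the other genes with several transcripts, NM_028261 of Tmem173 rose from 3.48, 4.12 and 4.03 FPKM to 7.20, 6.62 and 7.12 FPKM without overlap of the groups. Its share of the gene was 37.7% ± 3.92 (SD, n = 3) and then 51.8% ± 3.21 (exact permutation p 0.1). NM_001289591 of Tmem173, which has the same coding length of 378 residues, had 5.31 to 6.71 FPKM and 5.64 to 6.33 FPKM, and the ranges overlapped. The share of Mavs on NM_144888 was 34.9% to 38.7% and 23.0% to 35.5%, which overlap. NM_011163 held 54.8% to 69.8% of Eif2ak2 FPKM in LLC alone and 71.2% to 71.3% in LLC with BMSCs. Of the estimated counts, on which the edgeR test rests, it held 28.4% to 43.3% and then 45.3% to 45.5%. The other counts lay on BGI_novel_T003754, at 0.85 to 1.66 and then 7.12 to 7.21 FPKM, and on BGI_novel_T003755. The latter had 1.57 to 2.24 and 1.96 to 2.09 FPKM, which overlap. For Ifih1 all reads of a library of LLC alone were assigned to NM_027835 or all to NM_001164477, so at 16 counts its transcripts were not resolved.

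Ordered by mean FPKM, the genes in LLC alone ran Adar, Tbk1, Mavs, Tmem173, Eif2ak2, Ddx58, Trex1, Mb21d1, Dhx58 and Ifih1. The ranges of the neighbours Adar and Tbk1, Tmem173 and Eif2ak2, Ddx58 and Trex1, and Trex1 and Mb21d1 overlapped. In LLC with BMSCs the order was Eif2ak2, Ddx58, Adar, Tbk1, Mavs, Trex1, Tmem173, Mb21d1, Dhx58 and Ifih1. The ranges of Ddx58 and Adar, Adar and Tbk1, Mavs and Trex1, and Trex1 and Tmem173 overlapped. Ddx58 climbed from the sixth place to the second, while the 3 genes at the bottom, Mb21d1, Dhx58 and Ifih1, were the same in both groups. In total the 10 genes had 86.68 to 94.57 FPKM in LLC alone and 158 to 165 FPKM in LLC with BMSCs.

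**Figure D3:**
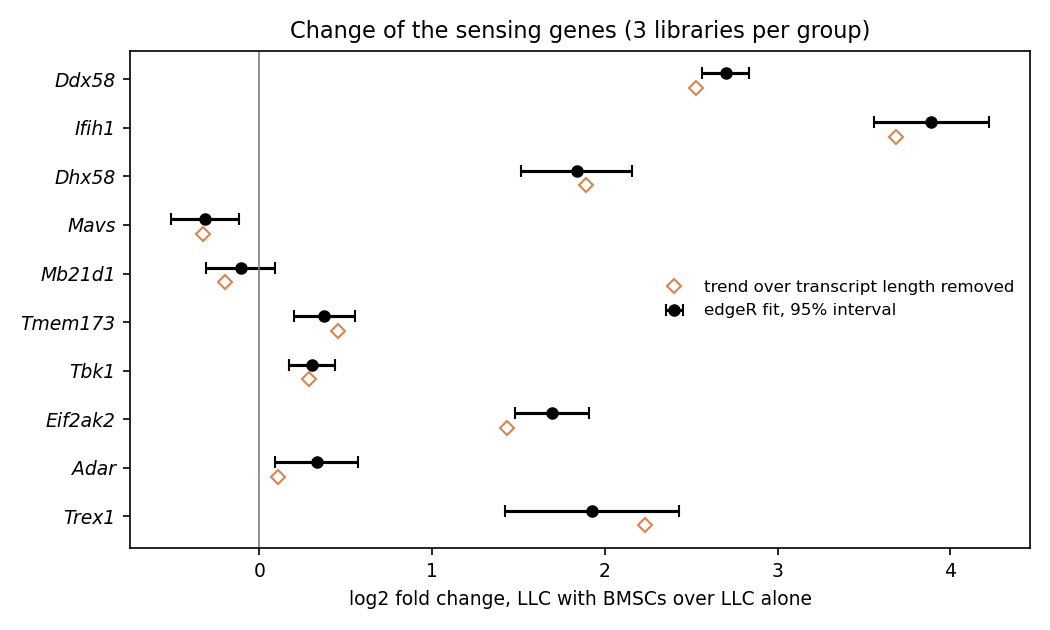
Log2 fold change of each sensing gene, LLC with BMSCs over LLC alone, with the 95% interval of the edgeR fit (black) and the value after a trend over transcript length was removed (orange diamonds). Ifih1 and Ddx58 lie farthest to the right at 3.89 and 2.70, Mavs and Mb21d1 lie left of 0, and the diamond of Adar lies near 0 at 0.11.

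The trend over transcript length was largest in the third library of LLC alone. There the median deviation in log2 CPM from the mean of the 6 libraries was 0.31 for the fifth of genes with the shortest transcripts and -0.37 for the fifth with the longest. The trend also differed between the groups. For the longest transcripts the deviations were -0.02 and -0.006 in LLC alone 1 and 2, and 0.18, 0.11 and 0.13 in LLC with BMSCs. For the shortest transcripts they were 0.06 and 0.03, and then -0.19, -0.09 and -0.11. Leaving out LLC alone 3 therefore does not remove the difference in trend between the groups. LLC alone 3 is also the library in which the longer genes Eif2ak2 and Adar were lowest and the short gene Trex1 was highest within LLC alone. Without that library the log2 fold changes of Eif2ak2, Trex1 and Adar were 1.61, 2.27 and 0.23. Within groups, LLC alone replicates 1 and 2 and LLC with BMSCs replicates 2 and 3 were the closest pairs, with a chi-square per gene of 4.79 and 3.03 where the other pairs had 19.1 to 60.4, all above counting noise. When each close pair was summed into a single sample, Tbk1 (log2 fold change 0.30), Adar (0.41) and Mavs (-0.26) were not called (edgeR adjusted p 0.0510, 0.0519 and 0.122), and the other calls of the 10 genes held.

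Of 21 tested partners of the RNA sensors, 12 were higher and 5 lower by the edgeR test, where 31.5% of all tested genes were higher and 31.3% lower. The counts were 10 and 6 with the length trend removed. The partners had a median log2 fold change of 0.43, which was 0.13 after that removal. Ddx60, a helicase linked to RIG-I signalling, rose from 0.01 to 0.03 FPKM to between 0.40 and 0.45 FPKM (log2 fold change 4.15, SE 0.22, adjusted p 4.54e-06). Trim25 and Trim65, ubiquitin ligases known to activate RIG-I and MDA5 respectively, had log2 fold changes of 1.02 (SE 0.097) and 1.05 (SE 0.083). Lgals9, which encodes galectin-9, rose with a log2 fold change of 1.58 (SE 0.062, adjusted p 9.37e-07). Trim25 was at 11.73 to 15.37 FPKM and then 27.91 to 28.95 FPKM, close to the level of Ddx58 in LLC with BMSCs.

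Of 30 tested partners of the DNA sensors, 7 were higher, 11 were lower and 12 were not called, with a median log2 fold change of -0.09. These shares lie near those of all tested genes (31.5% and 31.3%). Ifi203 and Ifi204, DNA-binding proteins of the interferon-inducible p200 family, rose with log2 fold changes of 4.51 (SE 0.077) and 1.97 (SE 0.077). Ifi204 reached 31.30 to 36.27 FPKM from 8.17 to 9.04 FPKM. Members of this family resemble each other in sequence, so reads can be divided among them. Aim2, the family's inflammasome sensor, fell instead, from 26.78 to 27.83 FPKM to between 18.97 and 19.37 FPKM (log2 fold change -0.54, SE 0.053, adjusted p 9.00e-05). Abcc1, a transporter that exports the messenger made by cGAS, rose with a log2 fold change of 1.15 (SE 0.10, adjusted p 4.91e-05). Nlrc3, an inhibitor of STING signalling, fell from 0.34 to 0.51 FPKM to between 0.16 and 0.21 FPKM (log2 fold change -1.12, SE 0.24, adjusted p 0.00449).

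Among the kinases, adaptors and transcription factors around Tbk1, 12 of 23 tested genes were higher and 4 lower, beside 31.5% and 31.3% of all tested genes, with a median log2 fold change of 0.30. Irf3, the factor that TBK1 phosphorylates, had 5.58 to 7.01 FPKM and 6.15 to 6.71 FPKM, and was not called (log2 fold change 0.13, SE 0.097, adjusted p 0.276). Irf7, its interferon-inducible relative, rose from 0.25, 0.25 and 0.34 FPKM to 10.67, 9.99 and 10.76 FPKM (log2 fold change 5.21, SE 0.12, adjusted p 1.02e-07). Irf7 was thus below Irf3 in LLC alone and above it in LLC with BMSCs. Irf5 rose with a log2 fold change of 3.14 (SE 0.20, adjusted p 1.01e-05), and Nfkb1, which encodes a subunit of NF-kB, with one of 1.13 (SE 0.071, adjusted p 9.40e-06).

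Of 17 tested neighbours of PKR and ADAR1 in the control of double-stranded RNA, 6 were higher and 5 lower, with a median log2 fold change of 0.08. These counts lie near the shares of all tested genes (31.5% and 31.3%). The 6 include Zbp1 and Ripk3, which passed the filter only through LLC with BMSCs, so their calls were fixed in advance. With at least 10 counts required in every library, 4 were higher and 5 lower. Zbp1, a sensor of Z-form nucleic acid that ADAR1 is known to restrain, had no count in any library of LLC alone and 27, 30 and 25 counts in LLC with BMSCs. Set against a floor of 3 counts per library, it was at least 8.83-fold higher. Ripk3, the kinase that ZBP1 engages, had 1, 0 and 1 counts and then 19, 15 and 15 counts, and was at least 5.28-fold higher against the same floor. Adarb1, which encodes the related editing enzyme ADAR2, rose from 3.70 to 4.31 FPKM to between 8.73 and 9.06 FPKM (log2 fold change 1.14, SE 0.078, adjusted p 1.47e-05). Ppp1r15a, which encodes the phosphatase subunit that reverses the mark set by PKR on eIF2 alpha, fell from 62.07 to 66.09 FPKM to between 22.31 and 23.44 FPKM (log2 fold change -1.50, SE 0.059, adjusted p 1.01e-06).

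**Figure D4:**
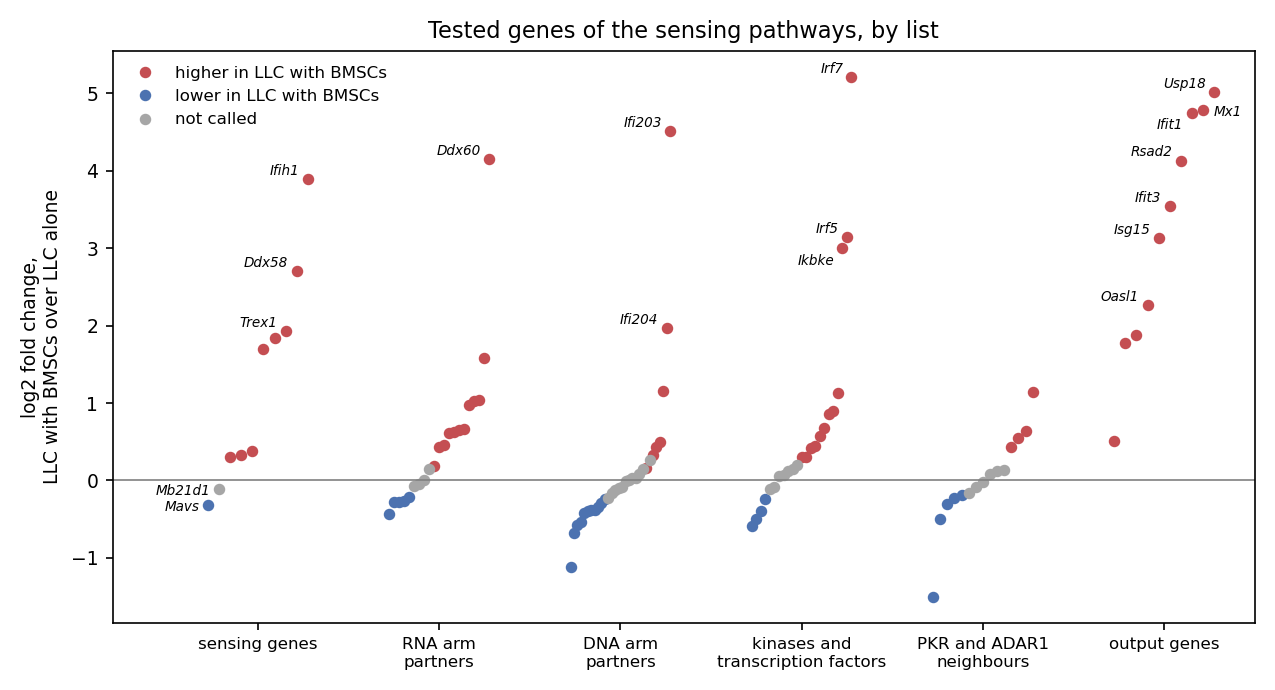
Log2 fold change of every tested gene among the sensing genes and in 5 lists of pathway genes around them, with genes called higher in red, called lower in blue and not called in grey. Zbp1 and Ripk3 are left out because LLC alone was at or under 3 counts. The output genes all lie above 0, while the DNA arm partners spread from -1.12 to 4.51 around a median of -0.09.

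The genes known to be switched on downstream of these sensors, or by the interferon they induce, were higher in all 10 cases. By the same edgeR test 31.5% of all tested genes were higher. With at least 10 counts required in every library, which leaves out genes with few counts in LLC alone, 8 output genes were called higher. The median log2 fold change of the 10 output genes was 3.34. In 9 of them the log2 fold change was 1 or more: Usp18 (5.02), Mx1 (4.78), Ifit1 (4.75), Rsad2 (4.13), Ifit3 (3.55), Isg15 (3.12), Oasl1 (2.27), Ccl5 (1.88) and Cxcl10 (1.77). A rise of that size was called for 8.65% of all tested genes. Isg15, a ubiquitin-like modifier that is conjugated to proteins during the antiviral response, rose from 5.0 to 7.31 FPKM to between 46.53 and 57.30 FPKM. Cxcl10, a chemokine for T cells, was already at 13.72 to 15.98 FPKM in LLC alone and reached 46.78 to 53.09 FPKM.

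The interferon genes with counts were low. Of 20 genes for type I and type III interferons, 5 had counts in any library, and none of them reached 1 FPKM. The others, Ifnb1 among them, were searched for and are listed for no library. Whether they had no reads or were left out of the annotation cannot be told. The summed FPKM of the 5 was 0.29 to 0.45 in LLC alone and 0.28 to 0.65 in LLC with BMSCs. Ifnz passed the filter, at 9.67 to 16.6 estimated counts and then 15.1 to 20.9, and was not called (log2 fold change 0.44, SE 0.26, edgeR adjusted p 0.191). Ifna13 had 3 to 6 counts in LLC alone and 0 to 5 in LLC with BMSCs, Ifne 0 to 1 and 0 to 3. Ifna12 and Ifnab had 1 count each, in a single library of LLC with BMSCs.

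Several markers of other cell types differed between the groups, where 31.5% of all tested genes were called higher and 31.3% lower. Among neutrophil markers 6 of 6 tested genes were higher. The summed FPKM of the list was 0.29 to 0.61 in LLC alone and 40.6 to 49.4 in LLC with BMSCs. Nearly all of it was S100a8 and S100a9, while the defining gene Ly6g stayed at or below 0.11 FPKM. S100a8, S100a9, Csf3r, Mpo and Camp had at most 2 counts in any library of LLC alone. Genes so low there pass the filter only through LLC with BMSCs, so their calls as higher were fixed in advance. The count is thus not comparable with the share over all tested genes. The same holds for the calls of Adgre1 and Hbb-bs in the lists below, with at most 0 and 3 counts in LLC alone. Among BMSC and fibroblast markers 11 of 11 tested genes were higher, with sums of 80.3 to 91.7 and 190 to 197 FPKM; Col3a1 led these sums, Col1a1 had 0.01 to 0.02 and then 1.85 to 2.24 FPKM, and Thy1 stayed at or below 0.03 FPKM. Among macrophage markers 6 of 9 were higher and 2 lower, with sums of 17.2 to 20.7 and 20.3 to 21.9 FPKM; Adgre1 had no count in LLC alone and 0.42 to 0.56 FPKM in LLC with BMSCs, and Ptprc, carried by all leukocytes, had 0.01 to 0.05 and 0.41 to 0.49 FPKM. Cx3cr1 and Cd68 were the markers of this list that fell, with log2 fold changes of -1.58 and -0.89 by edgeR (adjusted p 6.06e-04 and 5.01e-04). Among dendritic cell markers 3 of 6 tested genes were higher and Flt3 was lower (log2 fold change -1.04, edgeR adjusted p 0.00312), and the list summed to 14.4 to 15.7 and 87.5 to 101 FPKM, of which Bst2, also inducible by interferon, was 83.35 to 97.04 FPKM in LLC with BMSCs, and Siglech stayed at or below 0.01 FPKM. Of the lymphocyte markers 0 passed the filter on low counts, and they summed to at most 0.27 FPKM. Of 3 tested endothelial markers 0 were called, with sums of 10.3 to 13.2 and 10.4 to 10.6 FPKM. Erythroid markers summed to 2.41 to 3.27 and 7.88 to 9.62 FPKM, with 3 of 5 tested genes higher and 1 lower.

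Krt8, an epithelial keratin, and Vim, an intermediate filament of mesenchymal cells, had 90.3 to 102 and 108 to 113 FPKM, and 840 to 931 and 769 to 831 FPKM, while Epcam, Cdh1, Nkx2-1 and Sftpc were at or below 0.06 FPKM in all libraries. Krt18, another keratin among the 9 genes of this check, had a mean under 1 FPKM in each group. Cdkn2a, a tumour suppressor, had no count in LLC alone and 39, 31 and 35 counts in LLC with BMSCs. The part of other cells in the levels of the sensing genes was not tested. In bulk libraries a changed share of cells of a type and a changed amount of RNA per cell cannot be told apart. No source used here says that the counting used the strand of the reads. Dhx58, Eif2ak2, Mb21d1 and Adar share exon bases with annotated genes on the opposite strand, so for them the strands cannot be told apart.

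Over all tested genes with a promoter window, 42.3% of the 390 with the response element core were called higher, and 30.8% of the 9814 without it. A log2 fold change of at least 1 was reached by 23.1% and 7.22%. Ifih1, Ddx58 and Eif2ak2, the 3 sensing genes whose stretches are printed above, had log2 fold changes of 3.89, 2.70 and 1.70. Of the 5 with a window but no match, Trex1 had 1.93, and Adar, Tbk1, Mb21d1 and Mavs had 0.33, 0.30, -0.11 and -0.31.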

How the data were processed

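The values of 6 RNA sequencing libraries of sorted LLC cells, 3 per group, were used, grouped by their titles. The study's methods name the BGISEQ-500 with paired-end reads, whereas the labels name Illumina protocols. The authors deposited estimated counts, which need not be whole, and FPKM values per gene and per transcript. The submitters' processing notes name HISAT, StringTie, Cufflinks, GATK and build mm8, without their roles. No coordinates accompany the values, so positions come from the GENCODE annotation of GRCm38 and promoter windows from RefSeq of GRCm38.p6. Windows were matched by gene identifier.

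Before testing, estimated counts were rounded to integers. The test used edgeR 4.0.16 (R 4.3.3), with TMM, its filter on low counts, the quasi-likelihood test and Benjamini-Hochberg adjustment at 0.05. Standard errors were taken as log2 fold change (absolute) over the root of the F statistic, and 95% intervals use the fit's degrees of freedom. Estimated counts of a library totalled 33476347 to 46189113, and a floor of 3 counts per library covers counting error only. Genes missing from a library's table were taken as 0, and 27 symbols stored as dates were restored. Transcript shares were compared by exact permutation tests, two-sided.

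The 10 sensing genes and all lists were chosen with earlier results of these data known. Named besides them were list genes past an adjusted p of 0.05 and a log2 fold change of 1 or more in size, the related kinases, Irf3, Irf7, Aim2, Zbp1 and interferon genes with counts, defining or leading cell markers, and the 5 genes most like the mean profile of the 10. Ly6g, Thy1, Ptprc, Siglech and Cdkn2a were singled out after their values were seen. Alternatives were DESeq2 1.42.0, library size, upper-quartile scaling, other filters, limma 3.58.1 on log2(FPKM + 1) and log2(FPKM + 0.1), a stricter threshold, the replicate number as a block, removal of a trend over transcript length, sums of the closest libraries and each library left out.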

Additional observations from a re-analysis of the deposited data

How the results depend on the processing

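Over 18 alternatives none of the 10 sensing genes changed direction, and Ddx58, Ifih1, Dhx58, Eif2ak2 and Trex1 kept their calls in all of them. All 42 alternative values of the differences in 6 transcript shares moved by less than 1 SD, the root of the mean variance of the groups. Leaving 1 of 3 libraries out cannot move a difference by that much, so for those alternatives the outcome was fixed and is no check. The Eif2ak2 difference (NM_011163) went from 7.03 to 2.31 percentage points without LLC alone 3. The Mavs difference (NM_144888) went from -7.88 to -4.98 without LLC with BMSCs 3. When an adjusted p under 0.001 was asked for together with a log2 difference of 1 or more in size, 5 sensing genes were higher and 0 lower, and of all genes 910 and 723; Mavs (-0.31), Tmem173 (0.38), Tbk1 (0.30) and Adar (0.33) passed neither limit. The same threshold left 4 higher and 0 lower RNA arm partners, 3 and 0 DNA arm partners, 4 and 0 kinases and transcription factors, and 3 and 1 neighbours of PKR and ADAR1. The last 3 higher genes include Zbp1 and Ripk3, whose calls were fixed by the filter. With the length trend removed 2 sensing genes were lower, Mavs and Mb21d1 (-0.20). With the closest libraries summed (LLC alone 1 and 2, LLC with BMSCs 2 and 3), which leaves 2 samples per group, 6 were higher and 0 lower, and Mavs (log2 fold change -0.26, adjusted p 0.122), Tbk1 (0.30, adjusted p 0.0510) and Adar (0.41, adjusted p 0.0519) were not called. Leaving out each library in turn gave 7 to 8 higher and 0 to 1 lower sensing genes, with log2 fold changes of -0.40 to -0.27 for Mavs and 0.23 to 0.39 for Adar. RNA arm partners called lower, 5 in the main test, were 3 with DESeq2, 3 with limma on log2(FPKM + 1) without a filter, 1 with libraries summed and 2 to 4 with a library left out. The neighbours of PKR and ADAR1 called lower were 2 with libraries summed and 3 to 5 with a library left out. Adar was not called by limma on log2(FPKM + 1) without a filter (0.30, adjusted p 0.0514).

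Replicate numbers are shared by the groups, and same-numbered libraries deviated together with correlations of 0.08, -0.11 and 0.06, so the numbers were not read as pairs. With the replicate number as a block, 8 sensing genes were higher and 1 lower, as without it, and 3 RNA arm partners were lower in place of 5. With limma on log2(FPKM + 1) and log2(FPKM + 0.1), a scale that understates changes of low genes, the log2 fold change was 0.94 and 2.72 for Ifih1 and 0.81 and 1.63 for Dhx58. At 16 counts per library of LLC alone, depth limits the transcripts of Ifih1.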

Other observations

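Over the 6 libraries, the tested genes of at least 1 FPKM whose log2 CPM profile was most like the mean profile of the 10 sensing genes were Cwc22, Pik3cd, Ctdspl, Cep128 and Fam46a, with Pearson's r from 0.999 upward. This describes a split into 2 groups of 3 libraries, and 328 of 10501 genes had an r above 0.99.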
